A study of Homo sapiens with 4 samples.

Results

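The genes described here encode the machinery that copies DNA: the factors that mark and license origins, the replicative helicase, the polymerases with their sliding clamp and clamp loader, the single-strand binding protein, and the enzymes that finish lagging strands and supply nucleotides. They are 50 genes chosen by symbol for their function, out of 62700 genes in the count tables, and all 50 were found and passed the filter on low counts that left 18139 genes for testing. The RNA was poly(A) RNA of HEK293T, a line derived from human embryonic kidney. The cells were transiently transfected with an α-amanitin-resistant RPB1, the catalytic subunit of RNA polymerase II. WT cells received the wild-type repeat tail (CTD), and T4A cells a tail in which every repeat carried alanine in place of threonine 4. Both groups were given α-amanitin at 2.5 μg/ml from 1 day after transfection, for 48 hours, to remove the endogenous subunit, and each group had 2 libraries. No group without the toxin or without a construct was used here, and transient transfection leaves cells that differ in how much construct they carry.

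Replication begins when the origin recognition complex (ORC), CDC6 and CDT1 load the MCM2 to MCM7 helicase onto DNA before S phase, and geminin (GMNN) prevents a second loading. The kinase CDC7 with its partner DBF4, and the factors that bring CDC45 and the GINS complex, then turn the loaded helicase into the active CMG helicase. Polymerase α with primase lays down primers, polymerases ε and δ extend the leading and lagging strands, and PCNA, loaded by replication factor C (RFC), holds them on DNA. Many of these genes are transcribed under E2F factors as cells enter S phase. HEK293T cells carry viral proteins that bind RB, the repressor of E2F, so that high expression of these genes is a known property of the line.

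The libraries held between 19257217 and 33063535 counts, with the WT libraries the deeper ones. POLR2A, the gene of RPB1, was at 5378 and 5477 counts per 1000000 (CPM) in T4A cells and at 3772 and 2764 CPM in WT cells (adjusted p = 7.23e-07). These counts pool the construct with the endogenous gene and cannot tell the constructs apart. Of 10 genes fixed as markers of HEK293 cells, LHX1 was under 1 CPM in every library, while NEFL, a neurofilament gene that this line expresses, lay between 112 and 128 CPM. These markers differed between the groups in both directions, since KRT8 (0.56) and VIM (0.20) rose, NEFL (−0.17) and CDH2 (−0.32) fell, and 5 tested markers did not pass. Among markers of other cell types, the 3 erythroid and the 2 endothelial genes found were under 1 CPM in every library, as were 4 of 5 lymphoid or myeloid genes, whereas ALB, of hepatocytes, lay between 0.441 and 1.91 CPM. The part that marker differences play in the results was not tested. In a bulk sample, a different share of cells in S phase cannot be told apart from a different amount of RNA per cell.

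The replication genes moved in both directions in T4A cells, by small amounts. The catalytic subunits of the polymerases, POLA1, POLD1 and POLE, fell, and of their 9 partners POLD2 and POLE4 rose, while the helicase as a group stayed close to WT. In the fit across all genes, 6 of the 50 rose (POLD2, POLE4, PCNA, RPA2, RPA3 and FEN1) and 6 fell (POLA1, POLE, POLD1, RRM1, MCM2 and WDHD1). Over all 18139 genes tested, 10.7% rose and 13.0% fell, so the number of replication genes called was close to the share found for any gene. The median log2 fold change was 0.00 over the 50 genes, as over all genes tested (−0.01), and the values ran from −0.56 for POLA1 to 0.66 for POLD4, which was not called and moved to 0.25 without WT replicate 1 and to 1.19 without WT replicate 2. Both T4A libraries lay above both WT libraries for 18 members and below them for 17, where the shares over all genes were 28.5% and 30.5%. None of the called members changed by more than 1.5-fold. The split depended on the scaling of the libraries, since 9 rose and 5 fell with DESeq2 size factors, 12 rose and 3 fell with upper quartile scaling, and 5 rose and 11 fell with library totals alone. Over all genes the corresponding shares were 11.2% and 12.1%, 14.8% and 9.47%, and 7.46% and 16.5%. Here and below, a gene rose or fell where its edgeR adjusted p over all genes was under 0.05. A ± after a log2 fold change gives its standard error (SE).

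**Figure D1:**
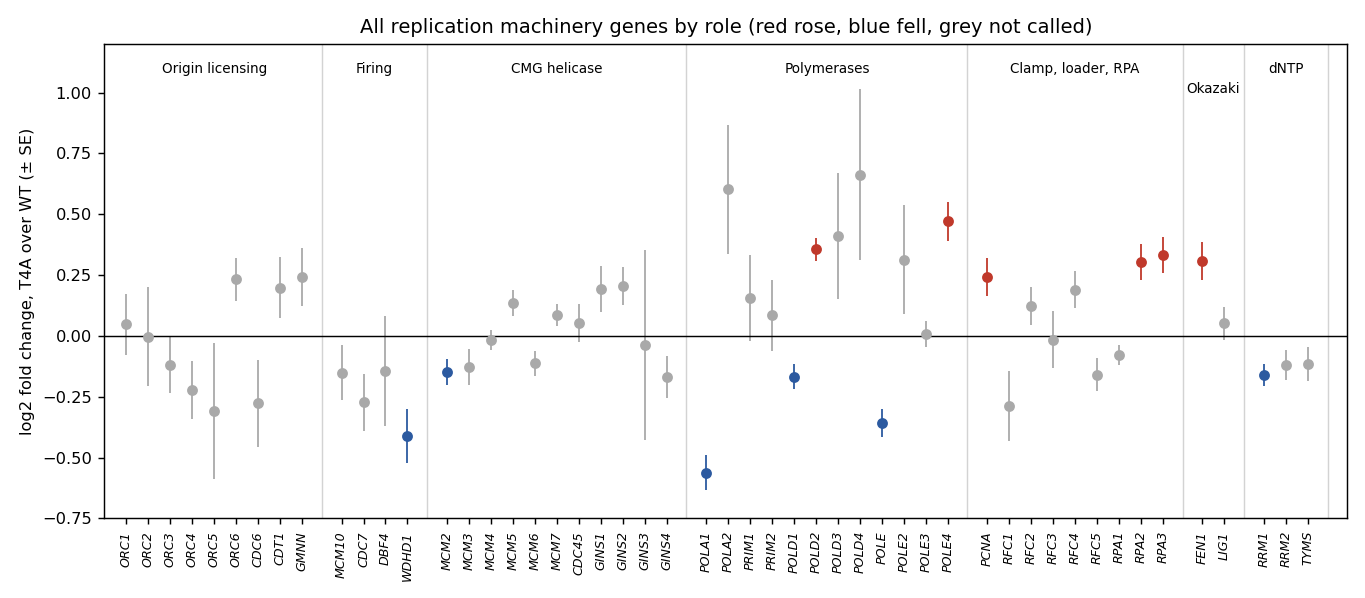
Log2 fold change (T4A over WT, vertical axis, bars ± SE) of the 50 replication genes, grouped along the horizontal axis by role, with red points for the 6 genes that rose, blue for the 6 that fell and grey for those not called. The polymerase group holds both the lowest value (POLA1, −0.56) and the highest (POLD4, 0.66, not called), whereas the 11 helicase genes lie between −0.17 and 0.21.

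The promoters of the members show what they share in sequence. RefSeq promoters of 300 bases (250 before and 50 after the start, GRCh38.p14) were matched for 44 of the 50 members. An E2F-type motif, searched on both strands as TTTCCCGC, TTTCGCGC, TTTGCCGC or TTTGGCGC, stood in 19 of the 44 (43.2%), against 3.33% of 27305 promoters of the same length and 4.44% of those of protein-coding genes. A CCAAT box, searched as CCAAT on both strands, stood in 24 of 44 (54.5%), against 35.7% of all. Matches on opposite strands can overlap, as they do in the MCM2 and MCM6 promoters. Windows around the motif are shown for the called members that hold it, because members with the same element were called in opposite directions. In each, capitals mark the motif and the sequence runs 5′ to 3′ on the strand of the gene.
MCM2 (fell, chr3:127598404-127598429, plus strand): tgaaccactTTTCGCGCgaaacctgg
POLA1 (fell, chrX:24693772-24693797, plus strand): catcacaggGCGCCAAAcgcgcgtcc
POLE (fell, chr12:132687344-132687369, minus strand): ggtgggagcGCGCCAAAtttctcccc
POLE4 (rose, chr2:74958603-74958628, plus strand): ccagcccgcGCGGGAAAgggcctgcg
PCNA (rose, chr20:5126665-5126690, minus strand): gcgtcagggGCGGGAAAaggcgtgcg
The motif was held by 3 of the 6 members that fell and by 2 of the 4 matched members that rose. A match is a description of the letters and does not show binding, and no promoter was read here for the other 6 members.

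The largest fall was in POLA1, the catalytic subunit of polymerase α on chromosome X (24693918 to 24996986, GRCh38). T4A cells had 51.0 and 53.1 CPM of it and WT cells 76.4 and 77.3 CPM. The groups were far apart relative to their spread, at −0.56 ± 0.07 on the log2 scale (adjusted p = 7.38e-06), or 1.48-fold lower. The partners of POLA1 did not follow it. PRIM1, the catalytic primase subunit and the shortest protein of the complex, was at 10.0 and 8.88 CPM in T4A cells and 7.63 and 9.37 CPM in WT cells, and its groups overlapped (log2 fold change 0.16 ± 0.18). PRIM2, the large primase subunit, stood at 0.09 ± 0.15. POLA2, the regulatory B subunit, was at 4.41 and 4.68 CPM against 2.71 and 3.28 CPM, and at 0.60 ± 0.27 it did not pass (adjusted p = 0.113), with a 95% interval from 0.05 to 1.16. Counts of these partners were low and uncertain. Another annotated gene on the same strand shares 55.8% of the bases of the canonical POLA2 transcript, 49.7% of those of PRIM2 and 25.4% of those of PRIM1. Those 3 neighbours held 21, 0 and 0 counts over all libraries. PRIM2 also shares 38% with PRIM2BP, a pseudogene on the same strand (0 counts). The sources used here do not state how fragments in shared stretches were assigned. Low counts of a neighbour therefore do not show that the member lost none. PRIM1, with 890 counts, also shares 3.44% of its transcript with NACA on the same strand (29016 counts). It shares 8.64% with HSD17B6 on the opposite strand (793 counts).

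POLE, the catalytic subunit of polymerase ε (chromosome 12, 132623762 to 132687342), fell as well. It was at 165 and 163 CPM in T4A cells and 225 and 197 CPM in WT cells, so that the groups did not overlap but the WT libraries were far from each other. On the log2 scale it changed by −0.36 ± 0.06 (adjusted p = 8.81e-05), a call lost with the exonic (−0.09) or transcript (−0.01) length trend removed. POLE4, a small histone-fold subunit of the same enzyme (chromosome 2, 74958643 to 74970128), moved the opposite way. Its level was 63.3 and 67.8 CPM against 48.9 and 45.7 CPM, a log2 fold change of 0.47 ± 0.08 (adjusted p = 0.000142). POLE3, the histone-fold partner of POLE4, was level in the 4 libraries, at 147 and 149.8 CPM against 151 and 144 CPM. Its log2 fold change of 0.01 ± 0.05 had a 95% interval from −0.10 to 0.12, and the value of POLE4 lay outside it. POLE2, the B subunit, stood at 0.31 ± 0.22 with 5.42 and 7.60 CPM against 5.13 and 5.31 CPM.

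In polymerase δ the catalytic subunit fell and 1 of the other 3 subunits rose. POLD1, its catalytic subunit (chromosome 19, 50384323 to 50418018), was at 140.4 and 136 CPM in T4A cells and 154 and 157 CPM in WT cells. The fall was small, −0.17 ± 0.05 on the log2 scale (adjusted p = 0.0238), and the call was lost without T4A replicate 2 (−0.15), without WT replicate 1 (−0.18) and without WT replicate 2 (−0.16). It was also lost with upper quartile scaling (−0.08), with DESeq2 (adjusted p = 0.0513) and with the exonic (−0.14) or transcript (−0.11) length trend removed. POLD2, the regulatory B subunit (chromosome 7, 44114680 to 44124325), was at 242 and 239 CPM against 191 and 186 CPM. This was the smallest p among the members that rose, with a log2 fold change of 0.36 ± 0.05 (adjusted p = 8.21e-06). POLD3, which links the enzyme to PCNA, stood at 0.41 ± 0.26, and POLD4, the smallest subunit, at 0.66 ± 0.35. POLD4 counts were low, at 77 and 60 for T4A and 48 and 71 for WT, or 3.39 and 3.19 CPM against 1.43 and 2.77 CPM. At this depth neither POLD3 nor POLD4 passed, and 38.4% of the POLD4 transcript is shared with another annotated gene on its strand. Of the POLD1 transcript, 12.4% is shared with an annotated gene on its strand that held 0 counts.

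**Figure D2:**
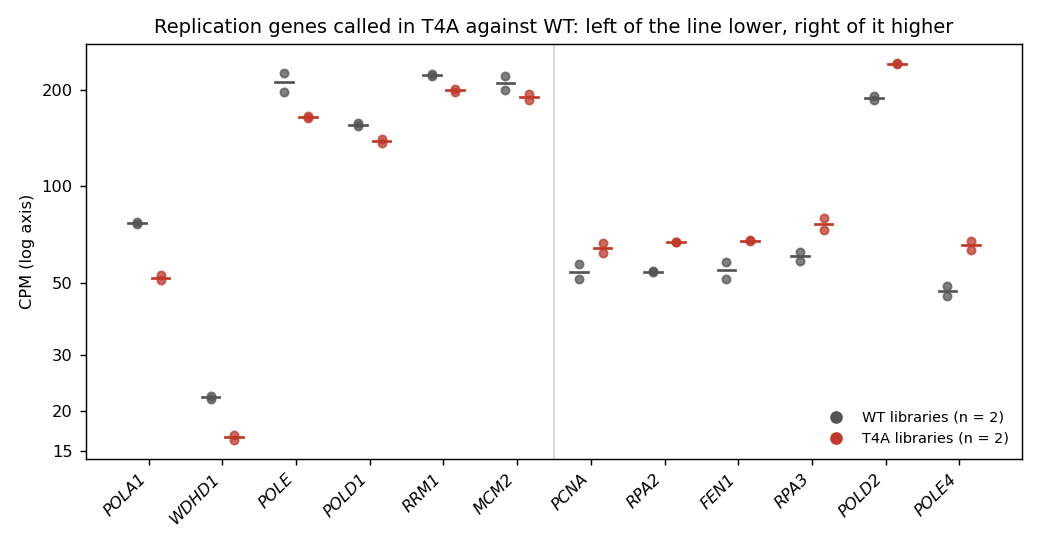
Level in CPM (log axis) of the 12 called replication genes, where grey points are the 2 WT libraries, red points the 2 T4A libraries, and short lines the group means. POLA1 and WDHD1 show the widest separation among genes that fell, and POLE4, from 47.3 to 65.6 CPM on average, among those that rose.

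The sliding clamp and the single-strand binding protein were higher in part. PCNA, which forms the clamp, was at 62.0 and 66.7 CPM in T4A cells and 57.3 and 51.4 CPM in WT cells (log2 fold change 0.24 ± 0.08, adjusted p = 0.0322). The groups did not overlap, but the call was lost without T4A replicate 2 (0.19) and without WT replicate 2 (0.16). It was also lost with library totals (adjusted p = 0.153), and the value was 0.02 with either length trend removed. Of replication protein A (RPA), which coats single-stranded DNA, both small subunits rose. RPA2 was at 67.1 and 67.1 CPM against 54.1 and 54.6 CPM (0.30 ± 0.07, adjusted p = 0.00401). Its call was lost with the exonic (0.11) or transcript (0.12) length trend removed. RPA3, the smallest, was at 79.5 and 73.3 CPM against 58.6 and 62.7 CPM (0.33 ± 0.07, adjusted p = 0.00206). RPA1, the large DNA-binding subunit, was at 324 and 315 CPM against 342 and 333 CPM and did not pass, at −0.08 ± 0.04 with an interval from −0.17 to 0.01. Named pseudogenes of PCNA, RPA2 and RPA3 had 0 counts over all libraries, and the sources used here do not state how fragments that fit several copies were treated.

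The clamp loader had no called member among its 5 genes, where 10.7% of all genes rose and 13.0% fell. RFC1, its large subunit, was at 12.8 and 18.1 CPM in T4A cells and 19.8 and 17.7 CPM in WT cells. The groups overlapped through T4A replicate 2, and the log2 fold change of −0.29 ± 0.14 became −0.56 and was called without that library (adjusted p = 0.00143). RFC5, the shortest subunit, was at 66.5 and 64.8 CPM against 73.4 and 73.2 CPM, a value of −0.16 ± 0.07 that did not pass (adjusted p = 0.108). RFC2, RFC3 and RFC4, which complete the ring, stood at 0.12, −0.02 and 0.19. RFC5 passed with library totals (−0.24), as did RPA1 (−0.16), and RFC4 with upper quartile scaling (0.27).

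The CMG helicase stayed near its WT level. MCM2 fell and the other 10 of its 11 genes did not pass in either direction, against 10.7% and 13.0% called over all genes. Other settings called more of them. With upper quartile scaling MCM5 (0.22), MCM7 (0.17), GINS1 (0.28) and GINS2 (0.29) rose, and with library totals MCM6 fell (−0.19). MCM5 and GINS2 also rose with DESeq2 size factors (0.15 and 0.22) and with a filter at a mean of 1 CPM (0.14 and 0.21). With the exonic length trend removed MCM4 (0.21, adjusted p = 0.00124), MCM5 (0.29) and GINS1 (0.37) rose, and with the transcript length trend removed MCM5 did (0.20). MCM2 was at 186 and 193 CPM in T4A cells and 220.0 and 199 CPM in WT cells. Its log2 fold change of −0.15 ± 0.05 was just inside the threshold (adjusted p = 0.0499), and the call was lost without T4A replicate 1 (−0.12) and without WT replicate 1 (−0.07). It was also lost with DESeq2 size factors (adjusted p = 0.0891), with DESeq2 (adjusted p = 0.113), with upper quartile scaling (−0.06) and with either length trend removed. An antisense transcript shares 32.4% of the bases of the MCM2 transcript, with 29 counts in all, and whether counting used strand is not stated.

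The other MCM subunits lay on both sides of 0. MCM3 was at 63.7 and 58.5 CPM against 68.0 and 65.5 CPM (−0.13 ± 0.07). MCM4 was at 361 and 376 CPM against 366 and 379 CPM, and its log2 fold change of −0.02 had an interval from −0.10 to 0.07. MCM5 was at 148 and 149.8 CPM against 135 and 136 CPM (0.14 ± 0.05, adjusted p = 0.0673), a pair of groups that lay apart by more than their own spread. MCM6 was at 154 and 153 CPM against 166 and 166 CPM (−0.11 ± 0.05). MCM7 was at 354 and 326 CPM against 317 and 324 CPM (0.09 ± 0.04). The 6 MCM proteins enter the hexamer in equal number, and their log2 fold changes spanned −0.15 to 0.14.

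CDC45, which joins the MCM ring on activation, stood at 0.05 ± 0.08. Of the 4 small GINS subunits, GINS1 and GINS2 stood at 0.19 ± 0.09 and 0.21 ± 0.08 with T4A libraries above WT libraries, GINS4 at −0.17 ± 0.09 with T4A libraries below, and GINS3, at 37 to 59 counts per library, at −0.04 ± 0.39. None of them passed, the closest being GINS2 (adjusted p = 0.0627).

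None of the 9 licensing factors passed in the fit described, where 10.7% of all genes rose and 13.0% fell. Numbers this small do not stand apart from these shares. Of ORC, ORC6, the smallest subunit, was at 39.4 and 40.3 CPM in T4A cells and 33.1 and 34.8 CPM in WT cells, at 0.23 ± 0.09 (adjusted p = 0.0615). It passed with upper quartile scaling (0.32), with DESeq2 size factors (0.25) and with a filter at a mean of 1 CPM (0.24). ORC1, the largest, stood at 0.05 ± 0.13, ORC2 at 0.00, ORC3 at −0.12, ORC4 at −0.22 and ORC5 at −0.31 ± 0.28. CDC6, the ATPase that loads the helicase with ORC, was at 7.49 and 10.8 CPM against 10.6 and 11.5 CPM. Its log2 fold change of −0.28 ± 0.18 became −0.56 and was called without T4A replicate 2 (adjusted p = 0.0205). CDT1, its partner, was at 18.9 and 18.2 CPM against 17.7 and 14.6 CPM (0.20 ± 0.13), and GMNN, the inhibitor of CDT1, stood at 0.24 ± 0.12.

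The 4 genes that act at firing had negative values, and 1 of them passed, where 13.0% of all genes fell. WDHD1 (AND-1), which ties polymerase α to the helicase, fell. It was at 16.9 and 16.3 CPM in T4A cells and 22.4 and 21.7 CPM in WT cells (−0.41 ± 0.11, adjusted p = 0.00999). The groups were well separated, but the call was lost without WT replicate 1 (−0.38) and without WT replicate 2 (−0.44). It was also lost with the exonic (−0.30) or transcript (−0.14) length trend removed. CDC7 stood at −0.27 ± 0.12 and was called only without T4A replicate 2 among the libraries left out (−0.42), and also with library totals (−0.35) and with the exonic length trend removed (−0.34). DBF4 stood at −0.14 ± 0.22 and MCM10 at −0.15 ± 0.11.

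Of the enzymes that mature Okazaki fragments, FEN1, the flap nuclease, rose and LIG1, the ligase, did not pass. FEN1 was at 68.2 and 67.4 CPM in T4A cells and 51.6 and 58.0 CPM in WT cells (0.31 ± 0.08, adjusted p = 0.00586), and the call was lost without WT replicate 1 (0.23). The call was also lost with the exonic (0.12) or transcript (0.18) length trend removed. LIG1 stood at 0.05 ± 0.07. FADS2, on the same strand, shares 2.43% of the FEN1 transcript and held 22587 counts over all libraries, against 6031 for FEN1.

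For nucleotide supply, RRM1, the large subunit of ribonucleotide reductase, was at 197 and 201 CPM in T4A cells and 221 and 224 CPM in WT cells. It fell by 0.16 on the log2 scale (adjusted p = 0.0138), a call lost without T4A replicate 1 (−0.15), WT replicate 1 (−0.16) or WT replicate 2 (−0.16). The call was lost as well with upper quartile scaling (−0.08) and with the transcript length trend removed (−0.14). RRM2, the small subunit, was at 113 and 103 CPM against 121 and 114 CPM, at −0.12 ± 0.06, and was called without T4A replicate 1 (−0.19) and with library totals (−0.20). TYMS, thymidylate synthase, stood at −0.12 ± 0.07. An antisense neighbour, ENOSF1, shares 60.0% of the TYMS transcript, and without strand the reads of the shared stretch cannot be told apart.

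Large and small subunits were then compared within their complexes. The 6 large subunits were POLA1, POLD1, POLE, RFC1, RPA1 and RRM1, and the 16 small subunits were their partners. Of the large subunits, 4 fell and 0 rose, and of the small subunits 4 rose and 0 fell, against 13.0% and 10.7% over all genes of any length. The median log2 fold change was −0.23 for the large and 0.25 for the small subunits. With upper quartile scaling the medians were −0.14 and 0.33, and with library totals −0.30 and 0.17, and since a scaling shifts all genes alike it moves both medians together and leaves their gap nearly as it is. RPA1, not called, turned to 0.00 with upper quartile scaling.

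Within a library, the ratio of 2 subunits does not depend on the scaling. The log2 CPM of the large subunit minus the mean of its small partners was lower in both T4A libraries than in both WT libraries for 5 of 6 complexes. For polymerase α it was 2.67 and 2.70 in T4A cells and 3.64 and 3.42 in WT cells, a difference of −0.85, or a ratio 1.80-fold lower. For polymerase δ it was 3.22 and 3.16 against 4.01 and 3.70, and for polymerase ε it was 2.16 and 1.94 against 2.74 and 2.59. The difference was −0.67 for polymerase δ and −0.62 for polymerase ε. For RPA the values were 2.15 and 2.17 against 2.60 and 2.51. For RFC they were −1.87 and −1.36 against −1.21 and −1.36, where the groups touched through T4A replicate 2. For ribonucleotide reductase they were 0.80 and 0.96 against 0.87 and 0.98, and the groups overlapped. Taken pair by pair, the large subunit was lower relative to a small one in both T4A libraries for 13 of 16 pairs, and 3 pairs overlapped (RFC1 with RFC3, RFC1 with RFC5, and RRM1 with RRM2). Pairs of 1 complex share the large subunit, so they are not independent. The mean used above weighs every partner alike, also those with low counts. POLA2, POLD3 and POLD4 held between 48 and 107 counts in each library. By pair the differences were −1.17 (POLA2), −0.72 (PRIM1) and −0.65 (PRIM2) for POLA1. They were −0.52 (POLD2), −0.58 (POLD3) and −0.89 (POLD4) for POLD1, and −0.65 (POLE2), −0.36 (POLE3) and −0.83 (POLE4) for POLE. Over all genes taken singly, both T4A libraries lay below both WT libraries for 30.5% and above them for 28.5%. Such ratios were not computed for pairs of other genes, so whether these counts are particular to replication complexes was not tested. With 2 libraries a group, exact permutation p-values cannot go below 0.333, so these ratios are given as values.

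**Figure D3:**
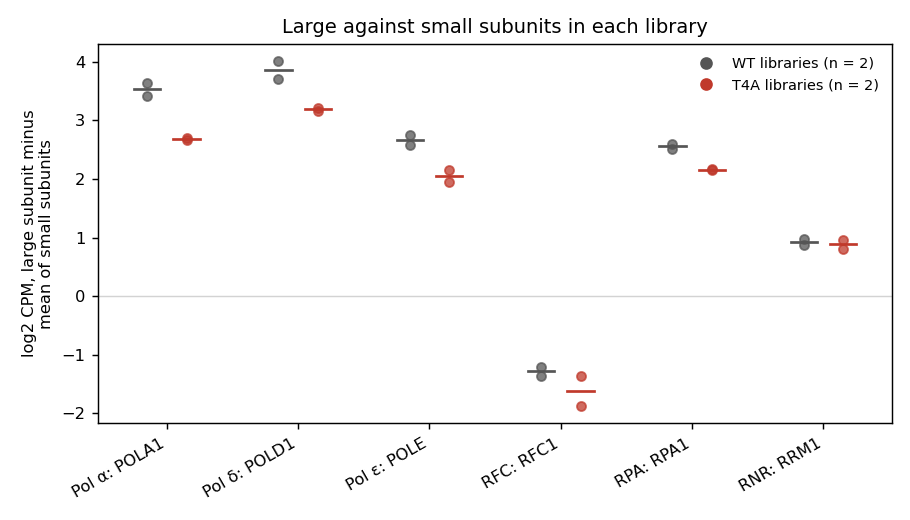
Log2 CPM of the large subunit minus the mean log2 CPM of its small subunits (vertical axis) in the 4 libraries for 6 complexes (horizontal axis), with WT in grey, T4A in red and short lines for group means. The T4A points lie under the WT points for the polymerases and RPA, by 0.85 for polymerase α, whereas those of ribonucleotide reductase (RNR) overlap.

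Transcript length moved with the change. Large subunits did not always have the longer transcript, since that of RRM1 (3142 bases) is shorter than that of RRM2 (3258 bases) and that of POLD1 (3436 bases) shorter than that of POLD3 (3788 bases). Across the 50 members the log2 fold change had a Spearman correlation of −0.62 with the length of the canonical transcript, and across 13568 protein-coding genes tested the correlation was −0.53. These are correlations across genes within the same 4 libraries and describe them only. By protein length, the 12 members under 300 residues had a median log2 fold change of 0.24, with 4 that rose, and the 5 members of 1000 residues or more had a median of −0.36, with 4 that fell. Over all genes of any length 10.7% rose and 13.0% fell. Across 13461 protein-coding genes tested the change also fell with protein length (Spearman correlation −0.38). Shares over genes of like length were not computed, so the classes cannot be called particular to replication genes. PRIM2 had no protein length in the annotation used and stands in no class, which leaves 49 members. In between, the 19 members of 300 to 600 residues had a median of 0.05 with 2 that rose (POLD2 and FEN1), and the 13 of 600 to 1000 residues had −0.11 with 2 that fell (MCM2 and RRM1).

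**Figure D4:**
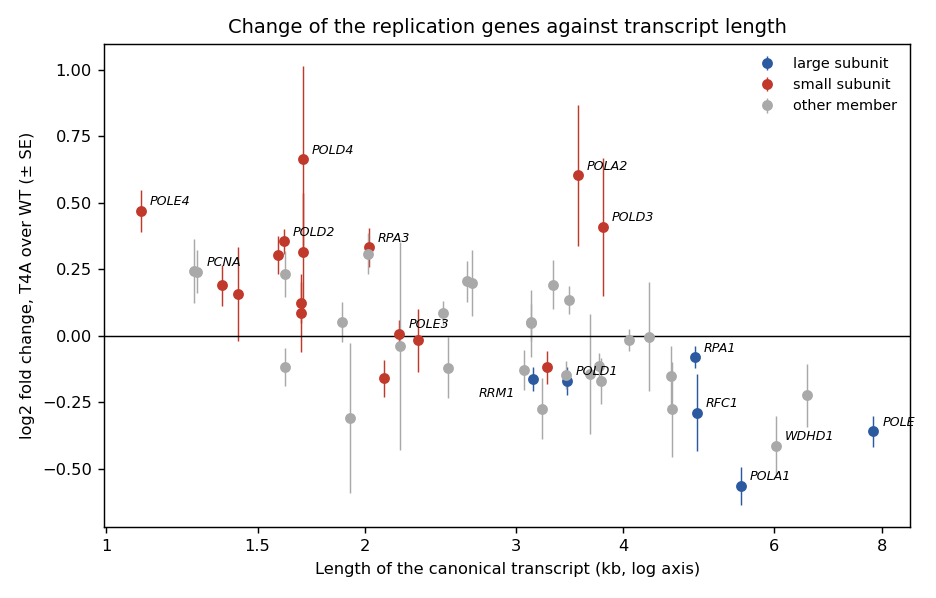
Log2 fold change (T4A over WT, vertical axis, bars ± SE) of the 50 replication genes against the length of the canonical transcript in kb (log axis), with large subunits in blue, small subunits in red and other members in grey. The points fall from POLE4 (0.47) among the shortest transcripts to POLA1 (−0.56) and POLE (−0.36) among the longest.

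A smooth trend of level with transcript length was then removed from each library over all genes. The trend was fitted to these same libraries, so a smaller gap between classes that mostly differ in length is built in. This length was chosen after the data were seen, and the part that length plays was not tested. The medians of the large and small subunits moved closer together. The median became −0.10 for the large and 0.05 for the small subunits. Only POLA1 and POLD2 of the 12 called members stayed called, at −0.32 (adjusted p = 0.00491) and 0.17 (adjusted p = 0.0151). POLE went to −0.01 and RPA2 to 0.12, neither called. POLE4 and RPA3 went from 0.47 and 0.33 to 0.23 and 0.20 and did not pass (adjusted p = 0.0609 and 0.0710). In this fit 2 members rose (POLD2 and MCM5, the latter at 0.20) and 3 fell (POLA1, RFC5 at −0.28 and TYMS at −0.30), where 7.41% of all genes rose and 5.66% fell. With the summed length of all annotated exons in place of the transcript, 8 members rose (MCM4, MCM5, GINS1, POLA2, POLD2, POLE4, RPA3 and LIG1) and 5 fell (POLA1, RFC5, RRM1, TYMS and CDC7), where 9.99% and 7.93% of all genes did, and the medians were −0.15 and 0.11. The annotated exons of POLD2 and POLA2 add up to 8005 and 12006 bases against transcripts of 1609 and 3544 bases, so the choice of length matters for them.

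**Figure D5:**
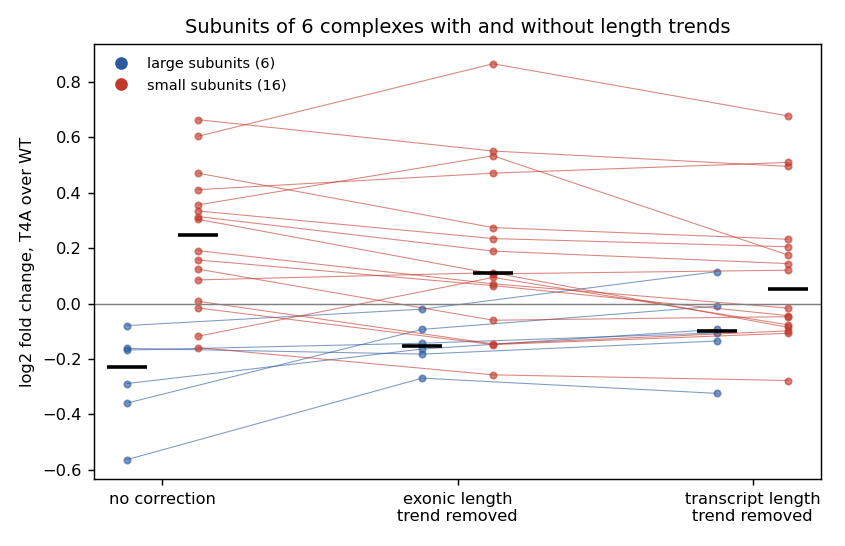
Log2 fold change (T4A over WT, vertical axis) of 6 large (blue) and 16 small (red) subunits without correction, with the exonic length trend removed and with the transcript length trend removed (horizontal axis), where lines join the values of a gene and black bars are medians. The medians move from −0.23 and 0.25 to −0.10 and 0.05.

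Levels were compared between members per kb of transcript (RPKM from TMM-scaled CPM and the canonical transcript). In WT cells MCM7 was highest at 129.9 ± 2.12 RPKM (SD, n = 2), followed by POLD2 at 117 ± 2.17 and MCM4 at 91.7 ± 2.23 RPKM. RRM1 (70.8 ± 0.592), RPA1 (69.7 ± 1.21) and POLE3 (67.3 ± 2.06) came next, and the libraries of RRM1 and RPA1 overlapped. In T4A cells POLD2 was at 149.7 ± 1.22 RPKM and MCM7 at 138 ± 7.95 RPKM, so the order of the first 2 was exchanged. The lowest levels in WT cells were those of POLA2 (0.845 ± 0.113), POLD3 (0.875 ± 0.0458) and GINS3 (0.889 ± 0.223 RPKM), which did not differ beyond their spread. For POLA2 the shared annotation named above bears on the level. All of these orders rest on the length of the canonical transcript. The annotated exons of MCM7, POLD2 and MCM4 add up to 4960, 8005 and 9852 bases, against transcripts of 2467, 1609 and 4062 bases. Levels per kb of summed exons were not computed, so the order may differ with that length.

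Other genes of the replication pathway, 52 listed for functions next to the machinery, also split. Of the 51 tested, 12 rose and 11 fell, where 10.7% and 13.0% of all genes did, with a median log2 fold change of −0.08. RNASEH2C, a subunit of the nuclease that removes RNA from DNA, rose to 197 and 196 CPM from 144 and 146 CPM (0.44, adjusted p = 1.45e-06). DCTPP1 and DTYMK, enzymes of the nucleotide pool, rose by 0.48 and 0.44. SUPT16H, the large subunit of the histone chaperone FACT, fell to 179 and 192 CPM from 249.9 and 258 CPM (−0.45), whereas SSRP1, its partner, stood at −0.05. TIMELESS, a fork protection factor, fell by 0.32. Of 12 genes for nucleotide supply 5 rose and 2 fell, of 11 for chromatin assembly 1 rose and 4 fell, and of 10 for fork protection 2 rose and 2 fell.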

How the data were processed

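Poly(A) RNA libraries of T4A and WT cells (2 each) were counted by the authors. Reads had been trimmed (Trimmomatic 0.38), aligned without strand (HISAT2 2.2.1) to GRCh38 and assigned to genes (featureCounts 2.0.1), per the submitters' processing notes and the study's methods. The strand setting of counting is not stated. The deposited values are raw fragment counts per gene, not normalized or pooled. Of 62700 identifiers, 60877 were named from GENCODE 44, which also gave lengths and overlaps on another build; printed positions are RefSeq GRCh38.

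Genes passing filterByExpr were tested for T4A against WT by edgeR (4.0.16, under R 4.3.3) using TMM, glmQLFit and glmQLFTest, Benjamini-Hochberg adjustment over all genes and a threshold of 0.05. SE is the log2 fold change over the square root of F. Intervals are 95% from the same fit. CPM use TMM-scaled library sizes and are shares of a library. Replicates differed by more than sampling noise (chi-square per degree of freedom 4.56 and 5.66). The paper calls the duplicates biological replicates, while the labels do not say that they were separate cultures. The spread behind each p-value is that of 2 libraries a group, and how much of it is technical is not known.

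Members and lists were chosen with earlier results of these data known, and the classes of subunits follow the complexes. Values in every library are given for called members, for the large and the shortest subunit of each complex, and for PCNA, CDC6, CDT1 and the MCM genes, with some others added after their values were seen; of other pathway genes the 3 smallest p in each direction are named, except 1 gene that is not reported here, and SSRP1 was added. Alternatives were other scalings, filters and tools (DESeq2 1.42.0, limma-voom 3.58.1), a replicate block, each library left out and length trends. The trend on canonical transcript length was chosen after seeing the data.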

Additional observations from a re-analysis of the deposited data

How the results depend on the processing

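Direction and call of the members were recomputed under 14 alternatives. POLA1 and POLD2 stayed called in all of them, and POLA1, POLD2, POLE, POLE4, RPA2 and RPA3 without any 1 library. The replicate block, where the replicates share only a number (correlation of their deviations −0.0038), gave 6 members that rose and 6 that fell and moved no call; ORC2 changed sign, at 0.0040. Without 1 library, between 5 and 6 members rose and between 2 and 8 fell (2 lacking WT replicate 1, 3 lacking WT replicate 2), and over all genes between 1377 and 1975 rose and between 1583 and 2545 fell. The median ranged then from 0.0041 to 0.021 for members, from −0.27 to −0.17 for large and from 0.21 to 0.30 for small subunits. In these fits the lone library of a group is assumed to vary like the others.

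With upper quartile scaling 12 members rose and 3 fell, with medians of 0.087, −0.14 (large) and 0.33 (small), and with library totals 11 fell, with medians of −0.075, −0.30 and 0.17. Without a filter the median of the members was −0.024. With the exonic length trend removed 1432 genes fell in all, with medians of −0.15 and 0.11. With the transcript length trend removed 1012 genes fell in all, 2 members rose and 3 fell, with medians of −0.10 and 0.052. Without PRIM1 and RRM2 the small median was 0.31. Beyond fewer genes or libraries, the cause of these moves was not tested.

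Sign changes touched 18 members, none of the 12 called. Log2 fold changes became, with library totals, −0.030 (ORC1), −0.024 (CDC45), −0.069 (POLE3) and −0.027 (LIG1). With upper quartile scaling they became 0.082 (ORC2), 0.067 (MCM4), 0.047 (GINS3), 0.068 (RFC3) and 0.0042 (RPA1). ORC2 became 0.013 with DESeq2 size factors, 0.0045 with a mean of at least 1 CPM, 0.011 with DESeq2 and 0.030 with limma-voom, and POLE3 became −0.018 without a filter. With the exonic length trend removed, values were −0.062 (ORC1), 0.079 (ORC2), 0.21 (MCM4, then called), −0.069 (CDC45), −0.15 (POLE3), −0.060 (RFC2) and 0.094 (RRM2). With the transcript length trend removed, they were 0.15 (ORC2), 0.076 (ORC4), 0.11 (MCM4), 0.020 (MCM10), −0.095 (CDC45), −0.044 (PRIM1), −0.086 (PRIM2), −0.098 (POLE3), −0.047 (RFC2), −0.016 (RFC4) and 0.12 (RPA1). Without 1 library, log2 fold changes ranged from −0.027 to 0.13 for ORC1, −0.17 to 0.17 for ORC2, −0.23 to 0.0086 for ORC3, −0.048 to 0.011 for MCM4, −0.052 to 0.15 for CDC45, −0.27 to 0.23 for GINS3, −0.027 to 0.047 for POLE3, −0.066 to 0.027 for RFC3, −0.034 to 0.13 for LIG1 and −0.35 to 0.11 for DBF4.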
